A study of Mus musculus with 28 samples.

Results

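The stretches described here are the parts of the autosomes in which sorted facial neural crest cells had no called interval of H3K27ac, the acetylation of histone H3 that marks active promoters and enhancers, over 300 kb or more. They were chosen by the positions of the intervals alone: on chromosomes 1 to 19, each gap of at least 300 kb between the end of an interval and the start of the next is a member. There were 717 such stretches among 123563 gaps, which is 0.58% of the gaps. The list of intervals was called once on the merged reads of 4 libraries, 1 each from cranial neural crest cells of wild-type (WT) mouse embryos at E10.5, labelled FNP, Mx, Md and PA2 by subpopulation. Per the labels, the cells came from dissected and fixed tissue and were collected by fluorescence-activated sorting, and the marker used for the sort is not given in the sources used here. The other 24 libraries of the series, which differ in antibody, stage or genotype or are inputs, were not analysed here. A single list has no replicates and its depth is unknown, so every value below is a description with no test. A stretch is a place where the caller listed nothing in the pool of the 4 populations, which does not show that no acetylation was there.

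Acetylated histone H3 sits at promoters and enhancers that are in use, and a cell type acetylates the regulatory DNA of the genes it expresses together with that of genes every cell needs. Much of the genome lies outside such DNA. Some of it is gene desert, and some holds arrays of duplicated genes that only particular cells use, such as the odorant receptor genes of the nose, of which each olfactory neuron expresses a single allele. Cranial neural crest cells give rise to the skeleton and connective tissue of the face, to glia and to pigment cells. Of 31 genes fixed as regulators or markers of cranial neural crest and facial mesenchyme, such as Twist1, Prrx1, Tfap2a, Sox9, Dlx5, Msx1 and Pdgfra, 31 held an interval and 0 lay in a stretch. Of the lists for other cell types on chromosomes 1 to 19, an interval was held by 7 of 8 endothelial, 8 of 10 surface epithelial, 5 of 7 muscle, 5 of 8 neuronal and 4 of 8 blood genes. Over all protein-coding genes, 15500 of 20665 overlapped an interval. The part of such cells in the list was not tested.

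The DNA at the start of genes inside stretches is shown first, because genes inside differed from the rest in their CG dinucleotides. Each sequence runs 5′ to 3′ from 250 bases before to 50 bases after an annotated start, of which a gene can have several. The starts are those of RefSeq for GRCm38.p6, and capitals mark every CG. Olfr1186 (chr2:88525251-88525550, plus strand), Olfr1226 (chr2:89193983-89194282, minus strand) and Olfr1264 (chr2:90022015-90022314, minus strand) are the first, middle and last odorant receptor genes with a promoter entry in the stretch that held the most genes. Vmn1r120 (chr7:21053735-21054034, minus strand) and Vmn2r45 (chr7:8488910-8489209, minus strand) encode vomeronasal receptors and come from the stretches richest in their families. Hoxc4 (chr15:103034145-103034444, plus strand), a body-axis regulator inside a stretch, was added after its values were seen. Its window lies within the annotated gene, chr15:103018097-103036856, and not at the 5′ end of the gene. Pax7 (chr4:139832919-139833218, minus strand), a neural crest regulator outside the stretches, has the median CG count of its list.
Olfr1186: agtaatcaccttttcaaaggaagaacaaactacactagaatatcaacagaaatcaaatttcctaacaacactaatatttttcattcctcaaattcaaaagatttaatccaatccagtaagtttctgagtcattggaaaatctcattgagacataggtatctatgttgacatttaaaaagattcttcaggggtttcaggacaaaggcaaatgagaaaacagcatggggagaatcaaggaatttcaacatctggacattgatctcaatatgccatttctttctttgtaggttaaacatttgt
Olfr1226: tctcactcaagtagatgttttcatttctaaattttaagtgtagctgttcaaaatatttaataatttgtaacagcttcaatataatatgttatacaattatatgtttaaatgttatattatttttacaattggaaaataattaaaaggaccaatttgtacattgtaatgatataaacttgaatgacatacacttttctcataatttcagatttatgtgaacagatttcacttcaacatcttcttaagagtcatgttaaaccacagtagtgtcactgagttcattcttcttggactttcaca
Olfr1264: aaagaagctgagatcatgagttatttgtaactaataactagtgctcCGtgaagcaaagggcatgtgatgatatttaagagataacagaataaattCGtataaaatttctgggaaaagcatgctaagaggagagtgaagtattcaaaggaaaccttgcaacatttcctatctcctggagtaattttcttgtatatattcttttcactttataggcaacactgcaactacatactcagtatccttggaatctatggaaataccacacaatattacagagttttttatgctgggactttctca
Vmn1r120: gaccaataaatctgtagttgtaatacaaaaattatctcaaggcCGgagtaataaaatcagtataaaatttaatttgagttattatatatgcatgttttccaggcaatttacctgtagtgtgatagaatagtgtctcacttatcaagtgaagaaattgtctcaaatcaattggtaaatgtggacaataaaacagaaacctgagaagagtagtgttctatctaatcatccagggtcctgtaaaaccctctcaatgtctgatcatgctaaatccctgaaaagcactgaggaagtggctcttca
Vmn2r45: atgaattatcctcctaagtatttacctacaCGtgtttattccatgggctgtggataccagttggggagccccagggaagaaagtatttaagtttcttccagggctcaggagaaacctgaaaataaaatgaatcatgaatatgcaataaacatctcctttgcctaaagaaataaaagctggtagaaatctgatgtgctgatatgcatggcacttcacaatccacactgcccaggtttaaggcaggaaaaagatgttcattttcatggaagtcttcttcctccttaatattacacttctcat
Hoxc4: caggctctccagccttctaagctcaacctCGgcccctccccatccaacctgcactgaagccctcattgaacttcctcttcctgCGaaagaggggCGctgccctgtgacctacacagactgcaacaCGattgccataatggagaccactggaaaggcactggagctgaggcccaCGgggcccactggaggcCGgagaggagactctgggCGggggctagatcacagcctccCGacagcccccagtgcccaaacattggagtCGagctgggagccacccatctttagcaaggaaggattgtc
Pax7: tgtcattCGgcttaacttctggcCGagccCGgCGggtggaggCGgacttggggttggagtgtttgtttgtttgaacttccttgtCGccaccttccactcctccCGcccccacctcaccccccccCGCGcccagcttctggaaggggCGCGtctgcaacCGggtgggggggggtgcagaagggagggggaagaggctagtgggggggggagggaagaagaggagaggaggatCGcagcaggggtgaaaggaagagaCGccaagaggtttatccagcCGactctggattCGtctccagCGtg

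The odorant receptor promoters above held 0, 0 and 2 CG, the vomeronasal promoters 1 each and the Hoxc4 promoter 9, while the Pax7 promoter held 17. GC content was 32.3% for Olfr1186, 25.7% for Olfr1226 and 34.3% for Olfr1264, against 63.7% for Pax7. The Vmn1r120 and Vmn2r45 promoters consisted wholly of runs of 36 bases that also occur in promoters of other genes (100% of positions), whereas the odorant receptor, Hoxc4 and Pax7 promoters shared 0%. In Olfr1226, Olfr1264, Vmn1r120 and Vmn2r45, though not in Olfr1186, the bases after the annotated start begin with ATG. Such a start may be that of the coding sequence and not of transcription. The word promoter here therefore means only the window around an annotated start.

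Together the 717 stretches covered 433.6 Mb, or 18.1% of the 2401 Mb between the first and last interval of each autosome. Their median length was 482.2 kb, with quartiles of 368.7 and 689.0 kb, and the longest measured 3677 kb. All gaps had a median of 7.43 kb, with quartiles of 0.692 and 18.2 kb, and 1% of them were longer than 200.1 kb. A length of 500 kb was reached by 336 stretches (287.9 Mb), 1 Mb by 80 (114.5 Mb) and 2 Mb by 7 (18.7 Mb). The 3 shortest stretches measured 300.19 kb on chromosome 4, 300.26 kb on chromosome 6, which held the sulfate transporter gene Slc13a1, and 300.56 kb on chromosome 2. The 3 gaps just under the limit measured 299.91, 298.81 and 298.65 kb and held no protein-coding gene. The plot of gap lengths shows no break at the limit.

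**Figure D1:**
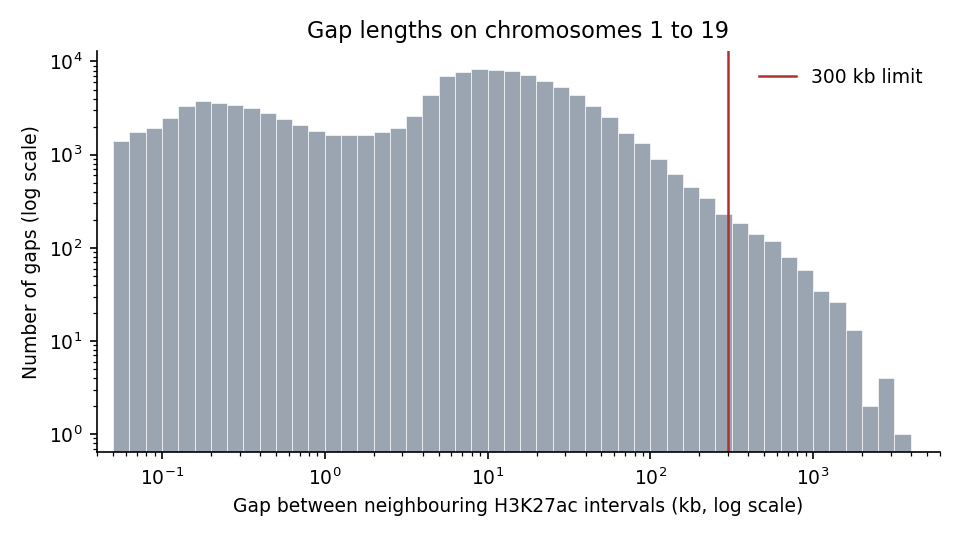
Number of gaps between neighbouring H3K27ac intervals on chromosomes 1 to 19 (vertical axis, log scale) by gap length in kb (horizontal axis, log scale, 10 bins per factor of 10), with the 300 kb limit as a red line. The 717 gaps right of the line are the tail of a continuous distribution.

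Most stretches held no whole protein-coding gene. A protein-coding gene lay wholly inside 226 of them (31.5%, 155.8 Mb, median length 536.1 kb). Another 200 (27.9%, 110.9 Mb, median 456.0 kb) were overlapped only by genes that begin or end elsewhere, and 291 (40.6%, 166.9 Mb, median 459.5 kb) touched no protein-coding gene. The share with a gene inside was 47.5% among the 80 stretches of at least 1 Mb, 35.9% among the 256 from 500 kb to 1 Mb, and 23.0% among the 243 of 300 to 400 kb. No annotated gene of any kind lay wholly inside 70 stretches, and 32 were not touched by any. The longest of these 70 spanned 1197 kb within and beside Cntnap5a, a neuronal adhesion gene (chr1:116056674-117253689), and the next 1188 kb between Ptprd and the pigment enzyme gene Tyrp1 (chr4:79327893-80515847). Runs of unknown bases in the assembly were not analysed here, since no genome sequence was used. The unassembled start of each autosome lies before its first interval, which began between positions 3000008 and 3327210, and is therefore in no stretch.

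The stretches were spread over every autosome, but unevenly. They took 29.9% of the span of chromosome 7, with 60 stretches, and 23.8% of chromosome 6, with 57. The share was smallest on chromosome 11, at 9.26% with 19 stretches. Chromosome 1 had the most, 64, adding up to 43.3 Mb. Gene content followed another order. Chromosome 7 had 534 of 2030 protein-coding genes inside (26.3%) and chromosome 2 had 301 of 1782 (16.9%), so these chromosomes held 40.6% of all genes inside. Chromosome 15 had 12 of 776 (1.55%) and chromosome 12 had 22 of 679 (3.24%). The X chromosome, which the rule leaves out, stood apart, with 114 such gaps over 63.5% of its 164.8 Mb span, a longest gap of 4140 kb and 266 of 966 protein-coding genes inside (27.5%).

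**Figure D2:**
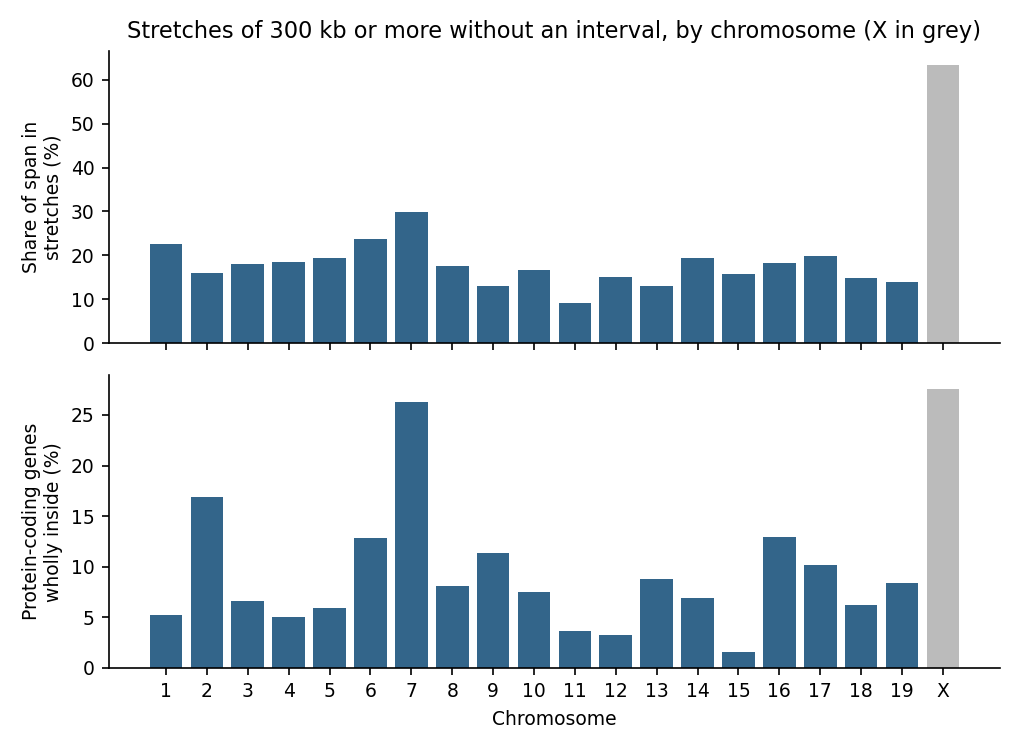
Share of each chromosome's span that lies in gaps of 300 kb or more (top, %) and share of its protein-coding genes wholly inside them (bottom, %), for chromosomes 1 to 19 (blue) and X (grey). Chromosome 7 leads the autosomes in both panels, and chromosome 2 is high only in the lower one.

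Of 20665 protein-coding genes on chromosomes 1 to 19, 2056 lay wholly inside a stretch (9.95%), and 5782 of 47042 annotated genes of every kind did (12.3%). That is 4.74 protein-coding genes per Mb inside and 9.46 per Mb outside. Olfactory and vomeronasal receptors made up 1112 of the 2056 genes (54.1%) and sat in 74 stretches. Without these receptors 944 of 19209 genes were inside (4.91%), or 2.18 per Mb. Genes inside were short, with a median annotated length of 1.29 kb (quartiles 0.942 and 9.09 kb), and of 6.22 kb without the receptors, while genes not wholly inside had a median of 19.9 kb (quartiles 7.62 and 49.7 kb). A short gene fits into a gap more easily than a long one, so the rule itself favours short genes. Of the 5165 genes with no interval over their body, 39.8% were in stretches.

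Among the groups of families, chemosensory receptors led by number of genes inside and by share, with 1152 of 1533 (75.1%). Families of the germ line and early embryo came next by share, at 73.0%. Odorant receptor genes (Olfr), which encode the receptors of the main olfactory epithelium, lay inside in 828 of 1104 cases (75%), in 40 stretches on 12 of the 16 autosomes that carry them. Of the other 276 genes, 268 had no interval either and lay in shorter gaps, with a median gap of 131.9 kb, and 8 overlapped an interval. The highest of those 8 scores, the authors' value for an interval's significance, was 447 at Olfr94, followed by 132 at Olfr1393 and 89 at Olfr608, the last of which lies between a pair of receptor stretches. The median score of all intervals was 110. The V1R pheromone receptors (Vmn1r) had 190 of 230 genes inside (82.6%), and the V2R receptors (Vmn2r) 94 of 122 (77.0%). Only 1 Vmn1r gene, Vmn1r4 with a score of 3117, and 4 Vmn2r genes overlapped an interval. Of the annotated length of Vmn1r4, 33.7 kb, 97.9% lay in a stretch. The bitter taste receptors (Tas2r) had 20 of 35 genes inside, the formyl peptide receptors (Fpr) 5 of 7 and the Mrgpr receptors of sensory neurons and mast cells 15 of 20. The trace amine receptors (Taar), which also serve smell, had 0 of 15 inside and 0 with an interval, and so lay in gaps shorter than the limit.

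Of the 10 stretches with the most genes, 8 were led by odorant receptors. The richest, chr2:88509217-90025292, held 66 protein-coding genes from Olfr1186 to Olfr1264, all of them odorant receptors. Beside it lay chr2:87526291-88509058 with 46 odorant receptor genes and chr2:86205958-87526026 with 59 genes, 57 of them odorant receptors. Together with a further neighbour these formed a run of 4 stretches over 4.19 Mb, interrupted by 3 single intervals, with 181 protein-coding genes. On chromosome 7, chr7:103472631-104218766 held 48 genes, 39 of them odorant receptors and 5 of them beta-globin genes (Hbb-bt, Hbb-bs, Hbb-bh2, Hbb-bh1 and Hbb-y), which carry oxygen in red cells. The other receptor stretches among the 10 were chr19:12797226-14093632 (41 odorant receptors), chr7:102687696-103470627 (39 of 41 genes), chr2:110950590-112239360 (37 of 38 genes) and chr10:128979086-129735394 (36 of 36). The remaining places went to chr8:21018755-22009454 with 41 genes, 28 of them alpha-defensins, and to chr16:88948279-89454513 with 37 genes, 28 of which carried predicted names and lay among hair keratin-associated protein genes. The most stretches in a run was 5, over chr7:19956612-24081471 with 106 protein-coding genes. The richest single Vmn1r stretch, chr7:21023285-22340215, held 26 of the family from Vmn1r120 to Vmn1r253, and the richest Vmn2r stretch, chr7:8450560-10285007, held 12 from Vmn2r45 to Vmn2r52.

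**Figure D3:**
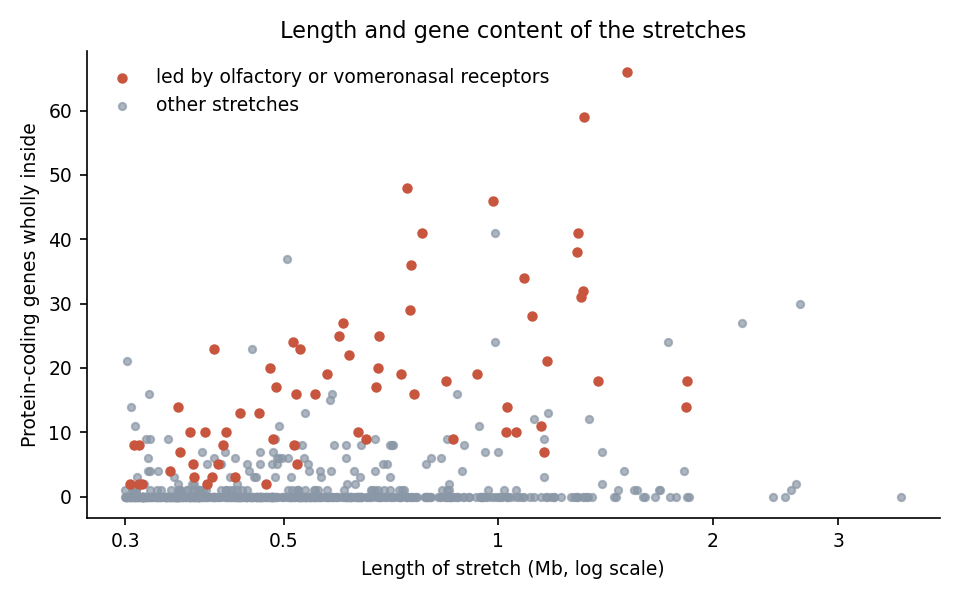
Length of each of the 717 stretches (horizontal axis, Mb, log scale) and the number of protein-coding genes wholly inside it (vertical axis). Stretches led by odorant or vomeronasal receptors (red) hold up to 66 genes, and many of the longest stretches (grey) hold few or none.

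Families of the germ line and early embryo had 54 of 74 genes inside. Pramel genes, which are expressed in germ cells and preimplantation embryos, had 38 of 45 inside, and 18 of them, from Pramel33 to Pramel50, shared chr5:93289795-95940150, the next to longest stretch of all. The oocyte homeobox genes (Obox) had 6 of 6 inside, Zscan4, active in the embryo at the 2-cell stage, 4 of 4, and the oogenesin genes (Oog) 4 of 4. The Tcl1b genes had 0 of 5 inside and 0 with an interval.

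Immune families had 91 of 249 genes inside. All 28 alpha-defensin genes (Defa), antimicrobial peptides of the gut, lay in chr8:21018755-22009454, and 23 of 42 beta-defensins (Defb) were inside. The Skint genes, needed for skin gamma-delta T cells, had 10 of 11 inside, and the remaining gene, Skint6, overlapped an interval with a score of 942. The natural killer cell receptors Klra had 11 of 13 inside, in chr6:129559410-131292553, together with 8 of the 9 Klrb to Klrk genes inside. Ceacam genes had 7 of 15 inside and the pregnancy glycoproteins (Psg) 3 of 13. No gene of the type I interferon cluster (0 of 18), of Ly6 (0 of 21), of Cd200r (0 of 4) or of Trim (0 of 68) lay inside, but all 4 Cd200r genes did when only intervals with a score of at least 100 were used. An interval was held by 50 of 68 Trim genes, close to the share of all protein-coding genes (15500 of 20665). It was held by 2 of 18 interferon, 4 of 21 Ly6 and 2 of 4 Cd200r genes.

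Genes for secreted and metabolic proteins had 120 of 248 inside. The secretoglobins (Scgb), which include the salivary androgen-binding proteins, had 35 of 40 inside and 0 with an interval, with 27 of them in chr7:31208983-33406914. The carboxylesterases (Ces) had 14 of 19 inside and the major urinary proteins (Mup) 15 of 24. The cytochrome P450 genes (Cyp) had 38 of 99 inside, of which 12, from Cyp2c65 to Cyp2c50, lay in chr19:39054975-40178397, while 32 held an interval, led by the sterol synthesis gene Cyp51 with a score of 6949. Sulfotransferases (Sult) had 7 of 21 inside, organic anion transporters (Slco) 5 of 14 and glucuronosyltransferases (Ugt) 6 of 22, and Akr1c had 0 of 9, which became 7 of 9 with intervals of a score of at least 100 alone and 8 of 9 without isolated intervals. Among proteases and their inhibitors 43 of 151 were inside: 14 of 26 kallikreins (Klk), all in chr7:43935038-44240449, 14 of 62 serpins, 9 of 25 cystatins and stefins, 6 of 13 Spink genes, and none of 18 Wfdc or 7 Svs genes.

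Skin families were split. The late cornified envelope genes (Lce), which serve the outer epidermis, had 14 of 21 inside, all in chr3:92690630-93014207, and the hair keratin-associated proteins (Krtap) 17 of 56. The keratins themselves (Krt) had 0 of 49 inside, with an interval over 18 of them, led by Krt10 with a score of 3341, and the small proline-rich proteins (Sprr) had 0 of 14. Of the 58 families with at least 5 genes, 20 had over 50% of their genes inside, 32 lay above the 9.95% of all protein-coding genes and 23 had none inside.

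**Figure D4:**
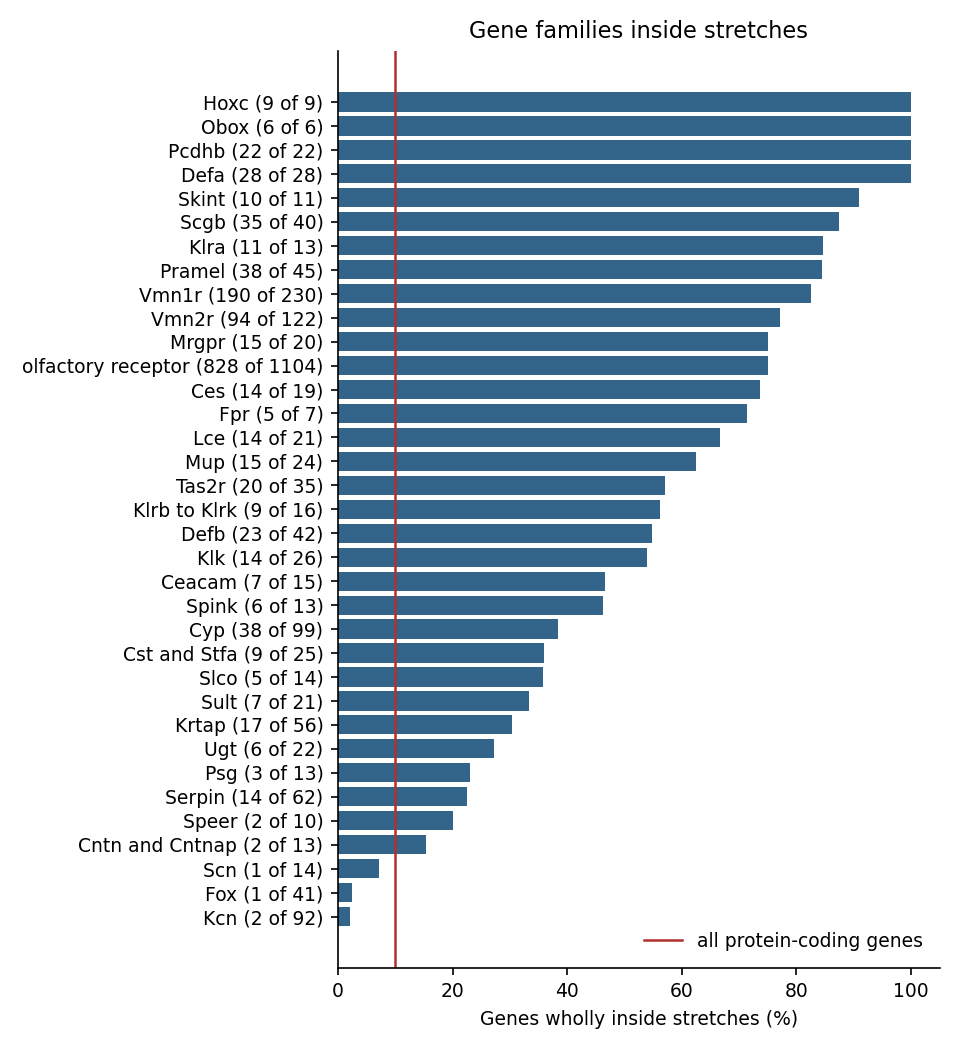
Share of genes wholly inside stretches (horizontal axis, %) for the families of at least 5 genes with any gene inside, with the counts beside each name, the predicted and zinc-finger genes left out, and 9.95% for all protein-coding genes as a red line. Hoxc, Obox, Pcdhb and Defa lie wholly inside, and the 23 families with no gene inside are not drawn.

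Developmental regulators had 10 of 119 genes inside (8.40%, beside 9.95% of all protein-coding genes), and 9 of these 10 were the Hoxc cluster. Hox genes give cells their position along the body axis, and the neural crest of the face and first arch forms without them. All 9 Hoxc genes, from Hoxc13 to Hoxc4, lay in chr15:102781022-103102267, a stretch of 321.2 kb in which the cluster takes 115.7 kb. It left 140.1 kb on the Hoxc13 side and 65.4 kb on the Hoxc4 side, and its bounding intervals had scores of 66 and 198. The same stretch held the lncRNA gene Hotair and the microRNA genes Mir196a-2 and Mir615. None of the 30 genes of the Hoxa, Hoxb and Hoxd clusters lay inside and 9 of them overlapped an interval. The highest scores in these clusters were 443 at Hoxa2, 800 at Hoxb2 and 211 at Hoxd8. The merged list includes PA2 beside FNP, Mx and Md. The longest gap that touched a cluster measured 69.5 kb at Hoxa, 186.6 kb at Hoxb and 47.6 kb at Hoxd. No Sox (0 of 18), Tbx (0 of 12) or Pax (0 of 9) gene lay inside. Of the lists fixed for other cell types and lineages, 2 genes lay inside, Hbb-bt and Hbb-y. The regulators of other lineages had 0 of 14 inside, although 8 of them, Ptf1a, Foxa1, Foxa2, Pdx1, Cdx2, Pax4, T and Nkx2-5, held no interval.

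Neuronal and adhesion families had 28 of 273 genes inside, close to the 9.95% of all genes, and 22 of the 28 came from a single array. The beta protocadherins (Pcdhb1 to Pcdhb22), adhesion proteins that give neurons individual identities, were all in chr18:37192428-37643684, a stretch of 451.3 kb bounded by intervals with scores of 71 and 2258. The alpha protocadherins had 0 of 14 inside, but 13 of them reached partly into a stretch and all 14 overlapped an interval, and the gamma protocadherins had 0 of 21 inside with 21 overlapping an interval. Genes of these arrays share their last exons, so an interval there is counted for each. Potassium channel genes (Kcn) had 2 of 92 inside, Kcnk9 and Kcnh8, sodium channels (Scn) 1 of 14, Scn7a, and Slitrk 1 of 4, Slitrk1. No gene of Cdh (0 of 23), Gabr (0 of 16) or Gri (0 of 18) lay inside. Zinc-finger genes named Zfp had 5 of 388 inside, and 371 held an interval.

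Further families were picked out after their values had been seen. All 7 amylase genes (Amy), which digest starch, lay in chr3:112670675-113629446, and all 8 placental cathepsins (Cts) in chr13:60790001-61665844. The 5 testis genes Adam26a, Adam26b, Adam29, Adam34 and Adam34l all lay in stretches of chromosome 8, while 7 of all 34 Adam genes were inside. Clec4 lectins of myeloid cells had 9 of 11 inside, H2-M histocompatibility genes 9 of 12, the interferon-induced Ifi200 genes 8 of 11, Tdpoz 7 of 8, Fbxw15 to Fbxw28 11 of 14, the exocrine pheromone peptides Esp 9 of 15, Nlrp 10 of 18, Pate 9 of 14 and the complement factor H-related genes Cfhr 3 of 3. The matrix metalloproteinases had 6 of 23 inside, all in chr9:7221844-7545049, with 13 of 23 holding an interval.

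A protein-coding gene was alone in its stretch in 61 cases, 17 of them with predicted or RIKEN names. Of the others, those given here were picked after their values were seen. Tyr, the rate-limiting enzyme of melanin synthesis in pigment cells, which descend from neural crest, lay alone in chr7:87277172-88130050, a stretch of 852.9 kb bounded by intervals with scores of 89 and 407. Ins1 (insulin), Pcsk1 (a prohormone convertase), Trhr (the thyrotropin-releasing hormone receptor), Htr1a (a serotonin receptor), Oprk1 (the kappa opioid receptor), Sim1 (a hypothalamic regulator) and Tfap2d each lay alone in a stretch of 309.8 to 536.1 kb. The 10 longest genes inside were Cntnap5c (648.9 kb), Skint5 (521.6 kb), Trdn, the triadin of muscle (393.2 kb), Kcnh8 (376.5 kb), St18 (373.7 kb), Gm7592 (228.8 kb), Cyp2c39 (222.2 kb), Wdr49 (208.2 kb), A26c3 (179.2 kb) and Cntnap3 (166.4 kb).

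Beyond protein-coding genes, immunoglobulin segments and a single array of small nucleolar RNA (snoRNA) genes stood out. Of annotated genes of every kind, 12.3% lay inside. Of the V segments, from which lymphocytes assemble antibody and T-cell receptor genes, 247 of 394 lay inside (62.7%). All 120 segments of the immunoglobulin heavy chain were in chr12:113425394-116047207, a stretch of 2622 kb and 239 annotated genes, whose only protein-coding genes were the sperm protein genes Adam6a and Adam6b. Of the kappa light chain segments 100 of 102 were in 3 stretches, 83 of them in chr6:68321632-70749804. T-cell receptor segments had 22 of 114 of Tra, 1 of 22 of Trb, 0 of 5 of Trd and 0 of 7 of Trg inside. Pseudogenes had 2167 of 8884 inside (24.4%), while lncRNA genes had 549 of 12408 (4.42%), tRNA genes 6 of 391 (1.53%) and rRNA genes 0 of 61. Of 1286 snoRNA genes 323 were inside (25.1%), and 169 of these shared chr7:59229882-59767400, a stretch of 537.5 kb. All 169 lay within the span of Snhg14, an imprinted host transcript, and 167 of them carried predicted names. The other 154 were spread over other stretches, with at most 7 in any.

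MicroRNA genes were seldom inside, with 38 of 1136 (3.35%), but a single array made up a large part. All 13 Mir344 hairpins of the RefSeq miRNA table lay in chr7:60733747-62209060, a stretch of 1475 kb with 1 protein-coding gene, Gm51483. Their 25 mature arms comprised 18 distinct sequences and are shown because copies of this array share seeds, the bases 2 to 8 that pair with targets and that stand in capitals. The seed GUCAGGC occurred in 7 arms, AUAUAAC in 4, AGGCUUC in 3, GAUCUAG in 3 and GUAUAAC in 2. The last lines give miRNAs of the Hoxc stretch. All are printed 5′ to 3′ from RefSeq entries for GRCm38.p6.
miR-344-5p: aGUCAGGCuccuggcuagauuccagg
miR-344c-5p: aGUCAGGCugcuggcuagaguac
miR-344g-5p: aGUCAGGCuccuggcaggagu
miR-344d-3p: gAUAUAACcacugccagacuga
miR-344e-3p: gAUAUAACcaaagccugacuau
miR-344h-5p: cAGGCUUCuggcuauauucc
miR-344c-3p: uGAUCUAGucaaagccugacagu
miR-344h-3p: gGUAUAACcaaagcccgacugu
miR-196a-5p: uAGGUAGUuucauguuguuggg
miR-615-3p: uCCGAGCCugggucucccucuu

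In these lines miR-344-5p, miR-344c-5p and miR-344g-5p share the seed GUCAGGC, and miR-344d-3p and miR-344e-3p share AUAUAAC. Their genes lie on the minus strand between chr7:61683127 and chr7:62085300. Mir196a-2, whose 5p arm has the seed AGGUAGU, and Mir615, whose 3p arm has the seed CCGAGCC, lie on the plus strand of chromosome 15 among the Hoxc genes. The other hairpins inside, bringing the total of the table to 33 of 919 in 17 stretches, included Mir511, Mir873a, Mir876 and Mir879.

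Most of the 12 longest stretches were deserts or duplicated arrays. The longest, chr1:112379975-116056522, held no protein-coding gene, reached into Cntnap5a and began 514.9 kb from Dsel. It headed a run of 3 stretches over 5.89 Mb with 1 protein-coding gene, the longest run of all. Fscb, a sperm tail gene, was alone in chr12:62177454-64752682 (2575 kb). No protein-coding gene lay in chr5:55046978-57574718 (2528 kb), between Stim2 and Pcdh7, or in chr14:90911352-92754580 (1843 kb), between Pcdh20 and Pcdh9. The same held for chr18:18146741-20002013 (1855 kb), which lies between Cdh2 and Dsc2 and reaches into Dsc3. The stretch chr17:38002111-39843016 (1841 kb) held 10 odorant receptors and 8 Esp genes. The stretch chr3:73734880-75556121 (1821 kb) held Gm6098, Zbbx, Serpini2 and Wdr49. The other 5 were the Pramel, immunoglobulin heavy chain, kappa light chain, Scgb and Vmn2r stretches described above.

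Long genes crossed many stretches. A part of 327 protein-coding genes lay in a stretch without the whole gene doing so, and by construction each of these overlaps at least 1 interval. Their median length was 136.9 kb, against 17.5 kb for all protein-coding genes, and they included 69 of the 216 genes of 500 kb or more. A long gene reaches across the end of a stretch more easily than a short one, so this count itself favours long genes. Of the stretches, 49 lay within a gene from end to end. Lrp1b, a lipoprotein receptor relative, had 1844 of its 2058 kb in 3 stretches, and Csmd1, a complement-regulating membrane protein of neurons, had 98.5% of its length in 3. Nkain2 had 99.9% in 4 stretches and Epha6, an ephrin receptor, 99.9% in 2. Dpp10 had 91.1%, Lrrc4c 92.5%, Sgcz 85.9% and Csmd3 78.7%. Dlg2, a synaptic scaffold, had 50.8% in 3 stretches and 42 intervals elsewhere in its 1973 kb.

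Single intervals stood between neighbouring stretches in 136 places. Their median score was 115, with quartiles of 75 and 318.8, beside a median of 110 and quartiles of 75 and 247.0 for all intervals on chromosomes 1 to 19. Their median width was 219 bp, beside 270 bp for all. A score under 100 was found in 46.3% of them and in 44.3% of all, and a score of at least 1000 in 8 of them (5.88%) and in 11.4% of all. At 10 of them a protein-coding gene end lay within 1 kb. The same share among all intervals was not counted, so this number cannot be read as few or many. The highest score, 3711, belonged to chr12:74803829-74804592, which lies 93.0 kb from the nearest gene end, that of the potassium channel gene Kcnh5. The next, 3460, lay 0.3 kb from an end of the zinc-finger gene Zfp317, with 10 genes of an odorant receptor stretch on its left and 16 on its right. An interval with a score of 1671 lay 0.9 kb from an end of the anion transporter gene Slc22a29, and 1 with a score of 1158, at chr2:87526027-87526290, lay 5.9 kb from Olfr153 between stretches of 59 and 46 genes. The others of the 10 highest, with scores of 882 to 2546, had Ddx18, Gm46425, Pcdh9, Nkain2, Skint6 and Kynu as their nearest genes. With no control named for the caller and duplicate reads kept, reads piled up at repeated sequence could enter the list, and their part in these intervals was not tested.

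Windows at the annotated starts of genes inside stretches, here called promoters, were almost free of CG. How many of these starts are starts of transcription was not examined. Odorant receptors inside gave 705 of the 1770 windows. The table gave 1770 promoters for genes inside, covering 85.2% of these genes on the chromosomes used, and 18315 for genes not wholly inside, covering 81.3%. Promoters inside held a median of 1 CG in 300 bases (quartiles 0 and 2), and the others a median of 16 (quartiles 5 and 26). At least 10 CG were found in 14 promoters inside (0.791%) and in 63.4% of the others, and no CG at all in 27.7% inside and in 2.15% of the others. Odorant receptors not inside had a median of 2 CG and a share of 0.844% with at least 10. Genes with no interval that were not inside, the group most like the genes in stretches, lay between, with a median of 3 CG (quartiles 2 and 6) and 13.5% with at least 10, but a promoter was found for 79.0% of them, under the 80% set as a minimum, so that comparison is void. The others are thus mostly genes with an interval. The median GC content was 38.0% inside and 58.0% elsewhere, and the ratio of observed to expected CG was 0.107 inside and 0.641 elsewhere. The 802 promoters of genes inside other than olfactory and vomeronasal receptors also had a median of 1 CG and a share of 1.75% with at least 10. The 14 CG-rich promoters inside belonged to Spata22 (25 CG), Kcnh8 (21), Slc5a8 (20), Fsip2 and Syce1 (14 each), Pcsk1 and Sim1 (13 each), Cntnap3, Ppp1r14bl and Vav1 (11 each), and Ccdc7a, Gnrhr, Serpinb6c and Tfap2d (10 each), and none was a receptor of smell or pheromones. A promoter was found for 1 of the 9 Hoxc genes inside, Hoxc4, and its window lies within the gene. The others of that cluster were not examined for CG. The 21 promoters found for the neural crest list held 2 to 50 CG, with a median of 17.

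**Figure D5:**
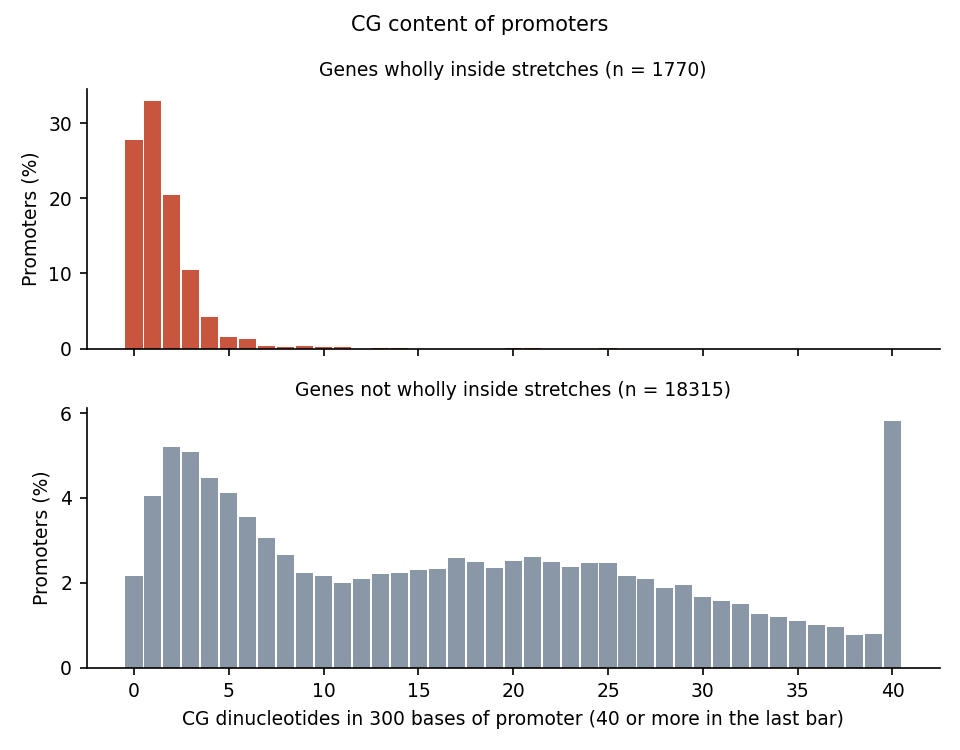
Number of CG dinucleotides in the 300 bases around annotated starts (horizontal axis, 40 or more in the last bar) as a share of promoters (vertical axes, %, on different scales). Promoters are those of genes wholly inside stretches (top) and of all others (bottom). Inside, nearly all promoters hold fewer than 10 CG, and outside the counts spread widely, with 63.4% at 10 or more.

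Short motifs were searched on both strands. The TATA box TATAAA was in 41.5% of promoters inside and 9.93% of the others, and the GC box GGGCGG in 1.98% inside and 51.4% of the others. In the genes with no interval that were not inside, with the same limit on matching, TATAAA was in 21.5% and GGGCGG in 15.5%. CCAAT was in 44.5% inside and 37.5% elsewhere. The homeodomain core TAATTA was in 13.2% inside and 3.63% elsewhere, and in 21.6% of the promoters of odorant receptors inside. The Ebf-type palindrome of TCCC and GGGA with 2 free bases between them was in 0.339% inside and 1.04% elsewhere. TATAAA was present in all 16 promoters of Krtap genes inside, in 75.9% of those of Scgb and in 46.1% of those of odorant receptors, beside 26.2% of the promoters of odorant receptors not inside. A match says only that these letters occur in the window. The median GC content was 38.0% inside and 58.0% elsewhere. Sequence rich in A and T holds TATAAA and TAATTA more often by composition alone, and GGGCGG less often. The part of base composition in these shares was not tested.

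How reads that match several near-identical gene copies were treated is not given in the sources used here. A run of 36 bases shared with the promoter of another gene occurred in 43.0% of promoters inside and in 18.4% of the others, and at least 50% of the positions were shared in 16.7% inside and 10.8% of the others. Among genes whose promoters shared no such run, 978 of 12694 were inside (7.70%), with 551 of 731 odorant receptors (75.4%), 62 of 83 Vmn1r (74.7%) and 20 of 24 Vmn2r (83.3%). For CG, each promoter with no such run was counted, also where another promoter of the same gene had one. The 1009 such promoters inside had a median of 1 CG, with 1.19% at 10 or more. The 14952 of genes not inside had a median of 15 and a share of 62.2%. The part of unplaced reads in the stretches themselves was not tested.

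Gaps of 100 to 300 kb, the nearest in kind, numbered 2490 and covered 392.4 Mb. The stretches held 4.74 protein-coding genes per Mb and these shorter gaps 2.50, the share of gaps with a gene wholly inside was 31.5% for the stretches and 17.3% for the shorter gaps, and receptors of smell and pheromones made up 54.1% of the genes in the stretches and 21.2% in the shorter gaps. A longer gap has more room for a whole gene, so the share of gaps with a gene inside depends on length by construction. The genes per Mb also count whole genes only, and so depend on gap length too.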

How the data were processed

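Per the text deposited with the list, the authors merged the reads of 4 H3K27ac libraries and called intervals with MACS2 2.1.3.3 (no model, shift 0, extension size 141 bp, duplicates kept, q-value limit 0.001). The submitters' processing notes name GRCm38 as the build, Bowtie 1.1.1 and bcl2fastq 2.17. The deposited score of an interval is the authors' own value, by MACS2 convention 10 times −log10 of the q-value, and serves only to describe or filter. Depth is unknown, and there are no values per library, so no error or interval can be given.

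Gaps were taken with Python 3.11.15, pandas 2.3.3 and numpy 2.4.6, drawn with matplotlib 3.10.9, and tested on simulated chromosomes. Genes came from RefSeq tables of GRCm38.p6, without strand or exons. A gene is inside when its start and end both are, and families were found by symbol. A promoter is the 300 bases of the RefSeq table around an annotated start, whether or not transcription begins there. Promoters of chromosome 18, assembly gaps, and the other 24 libraries were not analysed here.

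Genes were named by rule: the 12 longest and 10 richest stretches, the leading stretch of each main family, the 10 longest genes inside, the 10 with the longest overlap, those nearest the 10 highest isolated intervals, and listed markers inside. The members and lists were chosen with earlier results of these data known. Alternatives were other minimum lengths, score filters, isolated or extreme intervals left out, other rules for inside, and subsets of genes. A few genes that the rule names are not reported here.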

Additional observations from a re-analysis of the deposited data

How the results depend on the processing

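No paired analysis was possible because the intervals were called once on merged reads, with no values per library, and for the same reason no replicate could be left out. With a minimum of 200 kb there were 1237 stretches over 559.1 Mb, 287 isolated intervals and 529 crossing genes. With 500 kb there were 336 over 287.9 Mb, 13 families with over 50% of their genes inside, 44 isolated intervals and 158 crossing genes. With 1000 kb there were 80 over 114.5 Mb, 609 genes, 3 families, 7 isolated intervals and 31 crossing genes. Intervals with a score of at least 100 alone gave 643.6 Mb and 577 crossing genes. Leaving out intervals with no other within 50 kb gave 638.2 Mb and, by construction, 0 isolated intervals. Leaving out the 25 highest scores gave 433.7 Mb. The share of promoters with at least 10 CG was 1.75% without the receptors. The number of genes inside was 1549 with 500 kb, 1825 without predicted names, 2383 with any overlap and 2697 without isolated intervals. Of 512 values for single families, 435 stayed within the exact 95% binomial interval of the reported share, which is wide for small families, and 77 did not. That interval treats the genes of a family as independent, although an array can enter or leave a stretch as a block. It measures no sampling spread and served only to mark changes. The Cd200r share was 100% with scores of at least 100, the Akr1c share 77.8% with those scores and 88.9% without isolated intervals, and the Pcdha share 92.9% when 50% of a gene or any overlap was enough. The Hoxc and Pcdhb arrays were wholly inside under every alternative except minimum lengths of 500 and 1000 kb, which exceed their stretches. Odorant receptors ranged between 26.2% and 84.1% inside. The settings for isolated intervals and crossing genes, 1000 kb, isolated intervals and the 25 highest scores for families, and promoters without shared runs were chosen after seeing the data. Depth is unknown, and how many intervals end a gap depends on it.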
